A study of Mus musculus with 6 samples.

Results

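The proteasome genes were described in mammary tumor cells of FVB/NJ mice that carry the polyoma middle T transgene under the mouse mammary tumor virus promoter (MMTV-PyVT), a promoter active mainly in mammary epithelium. The design sets cells with wild type Nr4a1 against age-matched cells of genotype Nr4a1-/-. Both groups carry the transgene, and each had 3 RNA-seq libraries. The sources used here give no ages, no disrupted part of the allele and no way of isolating the cells. Whether each library stems from its own mouse is not stated, so the p-values measure only the spread between libraries, which may be technical. The genes were all rows whose symbol is Psm, a letter from a to g and a number, without Psmb8 and Psmb9. There were 46 such rows among 10995 in the table. Of these, 14 encode the 20S core particle (7 alpha and 7 beta subunits) and 17 the 19S regulatory particle (6 ATPases and 11 other subunits). The others are the inducible subunit Psmb10, 5 activators and inhibitors, 7 assembly chaperones, and 2 genes outside these roles. Psma8 and Psmb11, which are specific to other tissues, were not among the listed genes and were not analysed here.

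The proteasome degrades proteins tagged with ubiquitin. Its barrel-shaped core is built of stacked rings, with outer alpha rings that gate the entrance and inner beta rings that hold the active sites, and the regulatory particle caps the core, binds and removes ubiquitin, and unfolds the substrate with a ring of ATPases. Subunits are needed in fixed proportions, and their genes are known to be induced together by the transcription factor Nfe2l1 when proteasome activity falls short. Under interferon, Psmb8, Psmb9 and Psmb10 replace the constitutive catalytic subunits Psmb5, Psmb6 and Psmb7, which alters the peptides available for antigen presentation.

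Libraries held 19569173 to 24188875 counts, and levels are given as CPM, counts per 1000000 of the TMM-scaled library. Nr4a1 had 711, 406 and 358 counts in the wild type libraries and 612, 847 and 746 in those labelled knockout, so its transcript was not lower with the knockout label. The fitted log2 change came to 0.49 (SE 0.32, adjusted p = 0.594 in edgeR), and a two-sided exact permutation test of log2 CPM gave p = 0.20 (no smaller p than 0.1 can arise with 3 against 3). Directions are therefore between libraries as labelled. Without wild type replicate 1 the fitted value was 0.88. The first principal component of log2 CPM (60.1% of the variance) placed wild type replicate 1 at -51.3 and all others between -2.22 and 28.8. Of the epithelial markers 8 of 8 were listed, with summed levels of 5134 to 5513 CPM in wild type and 3379 to 4402 CPM in knockout libraries. Leukocyte markers (7 of 10 listed) summed to 314 to 602 and 641 to 919 CPM, fibroblast markers (5 of 7) to 1447 to 3780 and 3205 to 5728 CPM, and pericyte and smooth muscle markers (6 of 7) to 224 to 971 and 788 to 1856 CPM. The leukocyte sums are mostly Lyz2. By gene, knockout levels lay below wild type without overlap for 4 of 8 epithelial markers (9.05% of all rows). They lay above without overlap for 2 of 7 leukocyte, 0 of 5 fibroblast and 5 of 6 pericyte and smooth muscle markers (8.39% of all rows). Of 5 adipocyte markers 1 was listed, and of 6 endothelial markers 0. The listed adipocyte marker, Fabp4, stood at 2.71, 4.27 and 2.45 CPM in wild type and 47.0, 78.1 and 26.6 CPM in knockout libraries. Its groups did not overlap, and it did not pass in edgeR (adjusted p = 0.287) but passed in DESeq2 (adjusted p = 2.9e-16). The part of these cell types in the results below was not tested, and in such bulk samples fewer cells of a type and less RNA per cell cannot be told apart.

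Transcripts of the 20S core and the 19S regulatory particle stood at nearly the same level with both labels. The edgeR quasi-likelihood test, adjusted over all genes, called 0 of the 46 proteasome genes, with a smallest adjusted p of 0.574. It called 0% of all rows. DESeq2 called 0 of the 46 (0.938% of all rows tested) and limma-voom 0 (0% of all rows). At an unadjusted p under 0.05 edgeR gave 0 of the 46, against 7.88% of all rows. The 95% interval of the fold change lay within 1.5-fold in either direction for all 31 subunits of both particles and for 45 of the 46 genes. The exception was Psmb10. Over all rows 66.0% of intervals lay within that range. These intervals are not adjusted for the number of genes.

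The knockout and wild type levels overlapped for 44 of the 46 genes. All 3 knockout libraries lay below all 3 wild type libraries for 1 gene, Psmd8, where 9.05% of all rows did so, and above them for 1 gene, Psmg1, where 8.39% did. The shares among proteasome genes were thus below those of the table. Without wild type replicate 1, groups did not overlap for 5 genes, namely Psmd8, Psmd3 and Psmf1 (lower) and Psmg1 and Psmd9 (higher), against 24.3% of all rows.

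**Figure D1:**
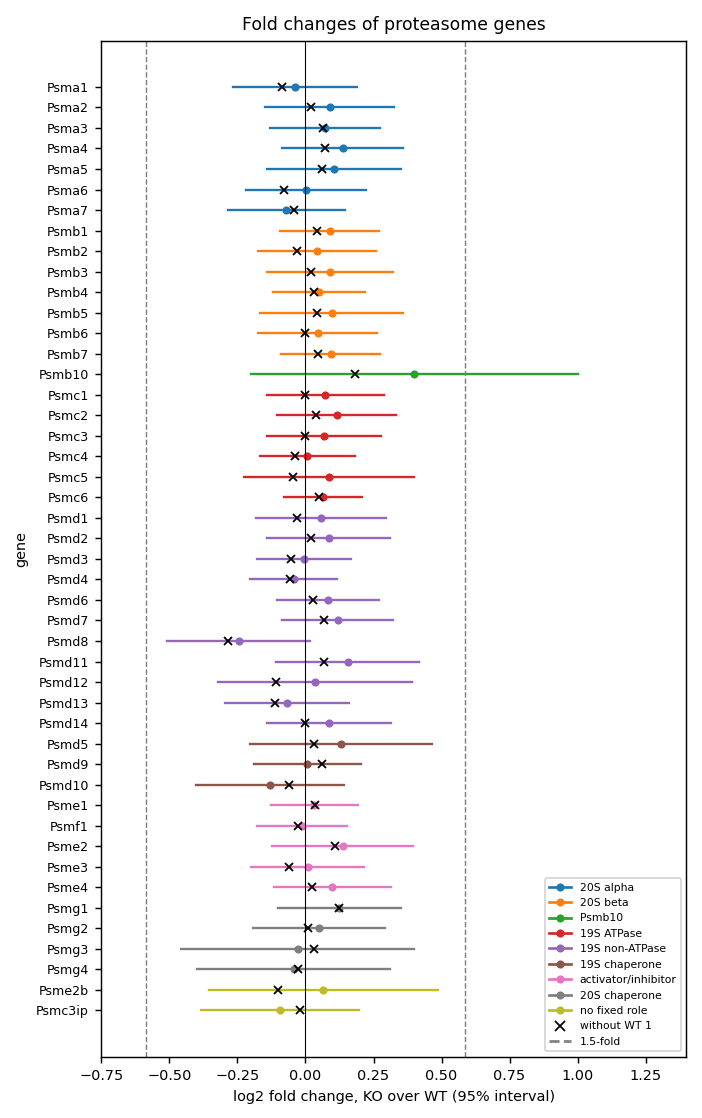
Log2 fold change of each of the 46 proteasome genes, knockout over wild type, from edgeR (dots) with its 95% interval (lines), coloured by role; crosses give the fold change without wild type replicate 1 and dashed lines mark 1.5-fold. Intervals of 45 genes lie between the dashed lines, and that of Psmb10 reaches 1.0.

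Fold changes were small and mostly above 0. In the core particle 12 of 14 lay above 0 and the median log2 fold change was 0.080. In the regulatory particle 13 of 17 lay above 0 with a median of 0.069. Over all rows 49.4% lay above 0 and the median was -0.0024. Without wild type replicate 1 the medians were 0.026 for the core and -0.0034 for the regulatory particle, and 9 of 14 and 6 of 17 lay above 0. The summed level of the core was 1616 CPM ± 100 (SD, n = 3) in wild type and 1674 CPM ± 76.9 (SD, n = 3) in knockout libraries, a difference smaller than either SD. That of the regulatory particle was 2578 CPM ± 207 (SD, n = 3) and 2638 CPM ± 23.2 (SD, n = 3). The 3 knockout libraries thus differed little among themselves for the regulatory particle, and the wide wild type spread came from replicate 1, whose sum was 2338 CPM against 2704 and 2691 CPM in replicates 2 and 3.

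Most subunits of both particles were lowest in wild type replicate 1. That library had the lowest of the 6 levels for 10 of 14 core subunits and 14 of 17 regulatory subunits, and the highest for 0 of these 31. Over all rows it was lowest for 31.6% and highest for 32.2%, so the low level of the subunits was not shared by the table as a whole. It was also the lowest for 4 of 5 fibroblast markers, with a sum of 1447 CPM against 2122 to 5728 CPM elsewhere, and for 5 of 6 pericyte and smooth muscle markers, with 224 CPM against 733 to 1856 CPM. Of 8 epithelial markers it was the highest for 4 and the lowest for 0. Of 7 leukocyte markers it was the lowest for 2 and the highest for 0. The part of these markers in the level of the subunits was not tested. Relative to each gene's mean log2 CPM over the 6 libraries, the median deviation of the core subunits was -0.14 in wild type replicate 1, 0.055 in replicate 2 and -0.050 in replicate 3. In knockout replicates 1, 2 and 3 it was -0.040, 0.051 and 0.092. For the regulatory particle the medians were -0.18, 0.051 and 0.028 in wild type and 0.0084, 0.023 and 0.041 in knockout libraries. The medians of both particles were lowest in wild type replicate 1 and had opposite signs in wild type replicate 3 and knockout replicate 1. The order of the other libraries differed between the particles: knockout replicate 3 was highest for 8 of 14 core subunits and wild type replicate 2 for 7 of 17 regulatory subunits. Over all rows the median deviation lay between -0.0041 and 0.0014 in every library.

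**Figure D2:**
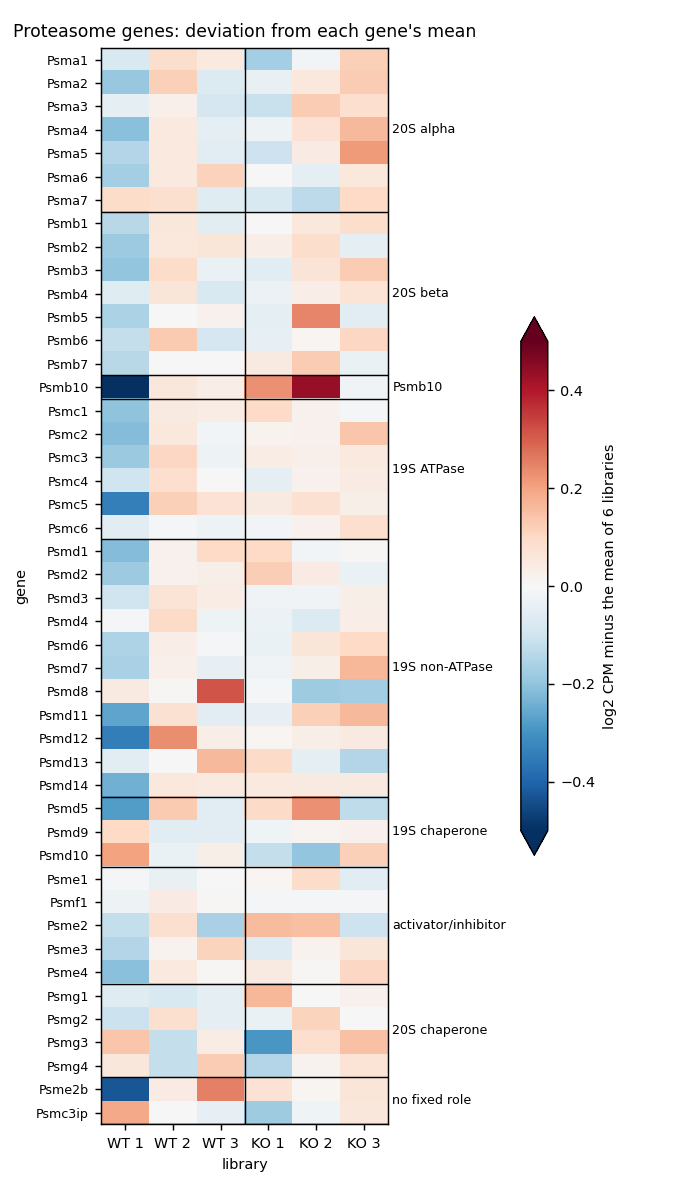
Log2 CPM of each proteasome gene minus its mean over the 6 libraries (colour, blue low and red high), with genes in rows by role and libraries in columns (WT, wild type; KO, knockout label). The first column is blue for most of the core and regulatory subunits, while Psmd9, Psmd10 and Psmc3ip are red there and Psmb10 goes beyond the colour range.

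Promoter windows of RefSeq (GRCm38.p6, the C57BL/6J reference, 250 bases before to 50 after the annotated start) were searched for letters that known regulators bind. A window was found for 39 of the 46 genes, and Psmb1, Psmb2, Psmb7, Psmc3, Psmd3, Psmd7 and Psmg2 were not searched. The core of the antioxidant response element, the site of Cap'n'collar factors such as Nfe2l1 and Nfe2l2, was taken as TGACNNNGC on either strand. It occurred in windows of 6 of the 39 genes (15.4%), namely Psmb5, Psmb6, Psmc6, Psmd12, Psmd9 and Psme4, in 13.99% of all genes with a window, and in 17.1% of those in the table. The ETS core CCGGAA occurred on either strand for 21 of the 39 (53.8%), with 10 of 14 in the regulatory and 4 of 11 in the core particle. It was found for 16.7% of all genes with a window and for 33.1% of those in the table. The NF-Y box CCAAT occurred for 13 of the 39 (33.3%), for 41.1% of all and for 42.8% of those in the table. By single windows, 12.4%, 14.9% and 37.4% of all windows held these motifs in the order given. The windows of Psmb5 and Psmb6 are printed because these catalytic subunits hold the antioxidant response core (Psmb7, the other one, was not searched), that of Psmd12 because it holds both motifs and its level was among the most reduced in wild type replicate 1, and that of Psmd8 because it alone among the subunits was lower in all knockout libraries and holds neither. Capitals mark TGACNNNGC or CCGGAA read on either strand, and each sequence runs 5′ to 3′ on the gene's strand.
Psmb5, chr14:54617946-54618245, minus strand: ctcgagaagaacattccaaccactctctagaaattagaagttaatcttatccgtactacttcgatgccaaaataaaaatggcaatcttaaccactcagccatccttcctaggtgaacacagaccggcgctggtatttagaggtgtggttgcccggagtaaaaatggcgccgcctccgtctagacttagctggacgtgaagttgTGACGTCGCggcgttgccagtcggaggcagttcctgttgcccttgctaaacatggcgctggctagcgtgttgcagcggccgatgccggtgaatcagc
Psmb6, chr11:70525107-70525406, plus strand: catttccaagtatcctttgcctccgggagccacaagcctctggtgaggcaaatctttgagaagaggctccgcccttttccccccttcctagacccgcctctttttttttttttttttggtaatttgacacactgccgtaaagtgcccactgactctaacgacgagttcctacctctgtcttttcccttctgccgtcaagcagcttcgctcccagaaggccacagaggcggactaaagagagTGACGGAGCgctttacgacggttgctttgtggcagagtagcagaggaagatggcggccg
Psmd12, chr11:107479278-107479577, plus strand: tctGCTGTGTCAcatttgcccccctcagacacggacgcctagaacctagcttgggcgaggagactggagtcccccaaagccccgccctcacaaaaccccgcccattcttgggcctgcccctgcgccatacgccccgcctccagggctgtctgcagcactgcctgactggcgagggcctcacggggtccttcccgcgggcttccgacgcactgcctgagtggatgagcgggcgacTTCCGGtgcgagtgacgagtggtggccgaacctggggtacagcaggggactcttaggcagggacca
Psmd8, chr7:29180624-29180923, minus strand: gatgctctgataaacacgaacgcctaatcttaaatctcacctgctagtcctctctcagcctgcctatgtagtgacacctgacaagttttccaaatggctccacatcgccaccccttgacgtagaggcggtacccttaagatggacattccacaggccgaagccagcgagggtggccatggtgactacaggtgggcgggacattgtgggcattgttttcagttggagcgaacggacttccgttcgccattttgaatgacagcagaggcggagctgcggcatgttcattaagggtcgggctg
The capitals begin 47 bases before the start in Psmb5 and 9 bases before it in Psmb6. In Psmd12 the antioxidant response core lies on the opposite strand 247 bases before the start, at the far end of the window, and the ETS core lies 16 bases before the start, also on the opposite strand. A match of letters is a description and does not show binding.

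The alpha ring forms the gate of the core. Psma4 had the highest fold change of its 7 subunits and stood at 95.03, 113 and 106 CPM in wild type replicates 1 to 3 and at 108, 115 and 123 CPM in knockout replicates 1 to 3. Its lowest value was that of wild type replicate 1, and the groups overlapped. Its fitted log2 change was 0.14 (SE 0.091, 95% interval -0.085 to 0.36, adjusted p = 0.597 in edgeR), and 0.070 without that library. Of its transcript's 31-base words, 46.4% also occur in transcripts of other genes, mainly the gene model Gm6542, so its reads are uncertain. Psma7 had the lowest fold change in this ring. It stood at 166, 165 and 150 CPM and at 148, 143 and 167 CPM, with the highest and the lowest value both among the knockout libraries. This gave a log2 fold change of -0.070 (SE 0.088, adjusted p = 0.747 in edgeR). The other alpha subunits lay between 83.5 CPM (Psma5) and 155 CPM (Psma6) in single libraries, with log2 fold changes from -0.039 for Psma1 to 0.11 for Psma5. Psma5 shares 66.5% of its words with other genes, mainly the gene model Gm8394, and Psma3 27.9%.

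The beta ring holds the active sites, and all 7 of its subunits had log2 fold changes between 0.043 and 0.097. Psmb5, the chymotrypsin-like subunit and main target of bortezomib, stood at 65.0, 72.5 and 73.6 CPM in wild type and 70.1, 85.9 and 69.7 CPM in knockout libraries. Knockout replicate 2 was the high one, and the other 2 knockout libraries lay within the wild type range. Its log2 fold change was the highest of the ring at 0.097 (SE 0.11, 95% interval -0.17 to 0.36, adjusted p = 0.721 in edgeR), and -0.0099 without knockout replicate 2. Psmb5 shares 74.0% of its words with other genes, mainly the gene model Gm3375. Psmb6, the caspase-like subunit, stood at 114, 136 and 117 CPM and at 121, 125 and 133 CPM, and the wild type values enclosed the knockout ones. On the log2 scale the fold change came to 0.045 (SE 0.090, adjusted p = 0.850 in edgeR). Psmb7, the trypsin-like subunit, stood at 77.0, 84.8 and 84.6 CPM and at 87.3, 92.4 and 82.8 CPM. Knockout replicate 3 lay within the wild type range, and the fitted log2 change was 0.092 (SE 0.075, adjusted p = 0.641 in edgeR). Psmb2, a subunit without catalytic activity, had the lowest fold change of the ring. It stood at 74.4, 87.7 and 88.1 CPM and at 86.4, 89.7 and 81.7 CPM, with a log2 fold change of 0.043 (SE 0.089) that was -0.032 without wild type replicate 1.

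The inducible subunits were far lower in wild type replicate 1 than in any other library. Psmb10, which replaces Psmb7 in the immunoproteasome, stood at 10.4, 18.1 and 17.8 CPM in wild type and 20.4, 23.6 and 17.2 CPM in knockout libraries. It had the largest fold change of the 46 genes, a log2 value of 0.40 (SE 0.25, 95% interval -0.20 to 1.0), which did not pass (adjusted p = 0.585 in edgeR) and was 0.18 without wild type replicate 1. Knockout replicate 3 lay below wild type replicates 2 and 3, so the groups overlapped. For every 100 counts of Psmb7 there were 13.5, 21.4 and 21.1 of Psmb10 in wild type and 23.4, 25.5 and 20.8 in knockout libraries. The ratio was therefore also lowest in wild type replicate 1.

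Psmb8 and Psmb9, outside the 46 genes, were lowest in the same library. Psmb8 stood at 28.9, 61.6 and 61.1 CPM and at 57.4, 54.9 and 48.1 CPM. Psmb9 stood at 3.05, 7.25 and 6.59 CPM and at 6.41, 6.33 and 6.41 CPM. In log2 terms their changes were 0.080 (SE 0.29, adjusted p = 0.923 in edgeR) and 0.18 (SE 0.33, adjusted p = 0.836 in edgeR), and they were -0.20 and -0.12 without wild type replicate 1. Unlike that of Psmb10, the fold changes of both thus changed sign. Interferon genes beside them (10 of 12 listed) summed to 957, 1167 and 1102 CPM in wild type and 1104, 1277 and 931 CPM in knockout libraries. These sums are mostly B2m and Tapbp. By gene, wild type replicate 1 was lowest for 7 of the 10 and knockout replicate 2 highest for 8, with median deviations of -0.52 and 0.81 in log2 CPM, so most interferon genes were lowest in the same library as the inducible subunits. Their part in the levels of the inducible subunits was not tested.

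**Figure D3:**
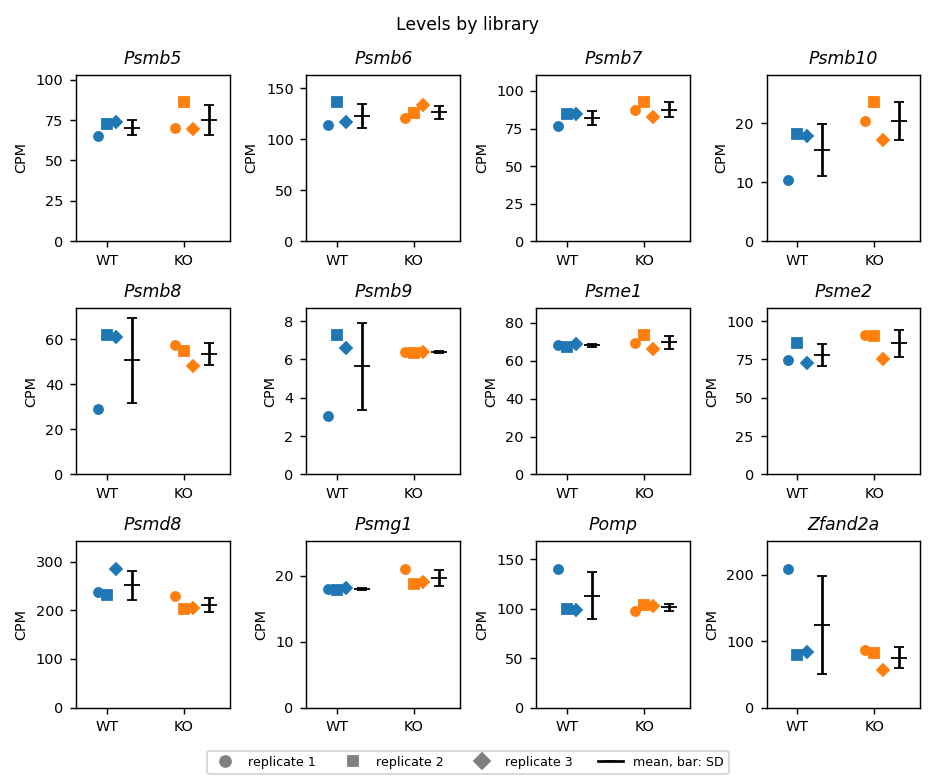
CPM (linear axes from 0) of 12 genes in each library, with wild type in blue and knockout label in orange, symbols by replicate number, and black bars for the mean and SD (n = 3). Wild type replicate 1 is the low point for Psmb10, Psmb8 and Psmb9 and the high point for Pomp and Zfand2a, and the orange points lie below the blue ones for Psmd8.

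The 6 ATPases of the regulatory particle, which unfold substrates and open the gate, were all lowest in wild type replicate 1. Psmc2 had the highest fold change and stood at 110, 133 and 127 CPM in wild type and 130, 130 and 141 CPM in knockout libraries. The fitted log2 change came to 0.11 (SE 0.090, adjusted p = 0.630 in edgeR), and 0.040 without wild type replicate 1. Psmc4 had the lowest, at 112, 127 and 120 CPM and 116, 122 and 124 CPM. The knockout values lay inside the wild type range, and the fitted log2 change was 0.0072 (SE 0.072, adjusted p = 0.974 in edgeR). Psmc5 was the ATPase most reduced in wild type replicate 1, at 101 CPM against 131 to 139 CPM in the other 5 libraries. This gave a log2 fold change of 0.086 with that library and -0.045 without it. Psmc1, Psmc3 and Psmc6 showed log2 changes of 0.073, 0.069 and 0.063.

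Among the other 11 subunits of the regulatory particle, Psmd8 differed from the rest in its pattern. Psmd8, a subunit of the lid that removes ubiquitin, stood at 237, 230 and 285 CPM in wild type and 228, 203 and 204 CPM in knockout libraries. Wild type replicate 3 was the high one, and knockout replicate 1 lay just below wild type replicate 2. Its fitted log2 change was -0.25 (SE 0.11, 95% interval -0.51 to 0.018), with an unadjusted p of 0.0626, the smallest of the 46 genes, and it did not pass (edgeR adjusted p = 0.574, adjusted p = 0.481 in DESeq2). The value was -0.29 with wild type replicate 1 left out, and -0.30 with an unadjusted edgeR p of 0.0499 (adjusted p = 0.402) with wild type replicate 2 left out. Both of these fits kept wild type replicate 3, the high library, so they do not show how far the change rests on it. With wild type replicate 3 left out, 0 of the 46 genes had an unadjusted edgeR p under 0.05, Psmd8 included. The wild type levels then left, 237 and 230 CPM, lay close to the 228 CPM of knockout replicate 1. Psmd13, another lid subunit, was likewise highest in wild type replicate 3, with overlapping groups, at 90.3, 93.8 and 105 CPM and 100, 90.8 and 84.8 CPM. On the log2 scale the fold change came to -0.067 (SE 0.094), and it shares 15.9% of its words with the neighbouring gene Sirt3.

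The subunits with the highest fold changes here were Psmd11 and Psmd7. Psmd11, a scaffold of the lid, stood at 97.5, 123 and 113 CPM and at 114, 127 and 131 CPM, with a log2 fold change of 0.16 (SE 0.11, adjusted p = 0.604 in edgeR). It was 0.069 without wild type replicate 1, and 11.9% of its words are shared. Psmd7, the partner of the deubiquitinase Psmd14, stood at 144, 165 and 157 CPM and at 160, 165 and 181 CPM, with a log2 fold change of 0.12 (SE 0.084, adjusted p = 0.606 in edgeR). Both were lowest in wild type replicate 1 and highest in knockout replicate 3. Psmd14, which cuts ubiquitin chains from the substrate, was nearly constant outside wild type replicate 1. It stood at 73.2 CPM there, at 89.6 and 89.4 CPM in wild type replicates 2 and 3, and at 89.5, 89.2 and 89.2 CPM in knockout libraries. Its log2 fold change of 0.087 (SE 0.094, adjusted p = 0.712 in edgeR) was -0.0034 without that library. Psmd12, also of the lid, stood at 98.5 CPM in wild type replicate 1 and between 126 and 147 CPM in the other 5 libraries, the widest spread of the 31 subunits (1.49-fold). The base subunits Psmd1 and Psmd2, which scaffold the ring and bind substrate carriers, showed log2 changes of 0.056 and 0.085, and the ubiquitin receptor Psmd4 -0.044. Psmd2 shares 44.7% of its words with other genes, mainly the gene model Gm5422.

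The assembly chaperones did not all share the low level of the subunits in wild type replicate 1. Of the chaperones of the regulatory particle, Psmd10 (gankyrin) stood highest in that library, at 67.6, 57.4 and 60.0 CPM against 54.1, 51.3 and 63.7 CPM in knockout libraries, and Psmd9 was highest there too, at 33.3 CPM against 29.9 to 31.6 CPM elsewhere. Psmd5 was lowest there, at 56.0 CPM against 62.2 to 79.5 CPM. In log2 terms their changes were -0.13 (SE 0.11), 0.0068 (SE 0.081) and 0.13 (SE 0.14). The chaperones of the core were low throughout. Psmg1 stood at 18.0, 17.8 and 18.2 CPM in wild type and 21.1, 18.8 and 19.1 CPM in knockout libraries, all of the latter above the former, with a log2 fold change of 0.12 (SE 0.093, 95% interval -0.10 to 0.35) that did not pass (adjusted p = 0.616 in edgeR). Psmg2, its partner, had a log2 fold change of 0.050 (SE 0.10). Psmg3 and Psmg4 lay between 5.63 and 8.05 CPM, with log2 fold changes of -0.029 (SE 0.18) and -0.043 (SE 0.15).

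Activators and the inhibitor also showed overlapping levels. Psme1 and Psme2, which form the interferon-inducible activator PA28, lie 5.91 kb apart on chromosome 14. Psme1 stood at 68.5, 67.1 and 68.8 CPM and at 69.4, 73.3 and 66.3 CPM, with a log2 fold change of 0.032 (SE 0.066, adjusted p = 0.857 in edgeR). It was not low in wild type replicate 1, in contrast to Psmb8, Psmb9 and Psmb10. Psme2 stood at 74.7, 85.8 and 72.6 CPM and at 90.7, 90.2 and 75.5 CPM, with a log2 fold change of 0.14 (SE 0.11, adjusted p = 0.625 in edgeR). It shares 66.2% of its words with Psme2b, a row of nearly the same sequence on chromosome 11, so reads of the pair cannot be told apart with certainty. Psme2b stood at 26.9 CPM in wild type replicate 1 and at 36.5 to 43.1 CPM elsewhere. The nuclear activator Psme3 and the large activator Psme4 showed log2 changes of 0.0078 (SE 0.086) and 0.099 (SE 0.088). Psmf1, an inhibitor of the core, was the steadiest of the 46 genes, at 33.1 to 34.6 CPM in all 6 libraries. Psmc3ip matches the naming pattern but encodes a cofactor of meiotic recombination, and it had a log2 fold change of -0.095 (SE 0.12).

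Levels of subunits were compared per kilobase of the longest protein-coding transcript. Core subunits ranged from 39.5 CPM per kb (Psma3) to 156 CPM per kb (Psmb6), with a median of 96.5. Regulatory subunits ranged from 41.3 CPM per kb (Psmd11) to 125 CPM per kb (Psmd2), with a median of 72.9. Per kilobase of all annotated exons the medians were 50.4 and 45.6 CPM per kb and the ranges 24.8 to 116 and 18.4 to 92.3, so the spread between subunits depends on the length used. Subunits of a particle differed more from each other than libraries did for a single subunit. Between libraries, the highest level was at most 1.32 times the lowest for each core subunit and at most 1.49 times for each regulatory subunit. Psmb10 stood at 13.7 CPM per kb and the core chaperones at 7.83 to 18.0 CPM per kb, below every subunit of either particle.

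**Figure D4:**
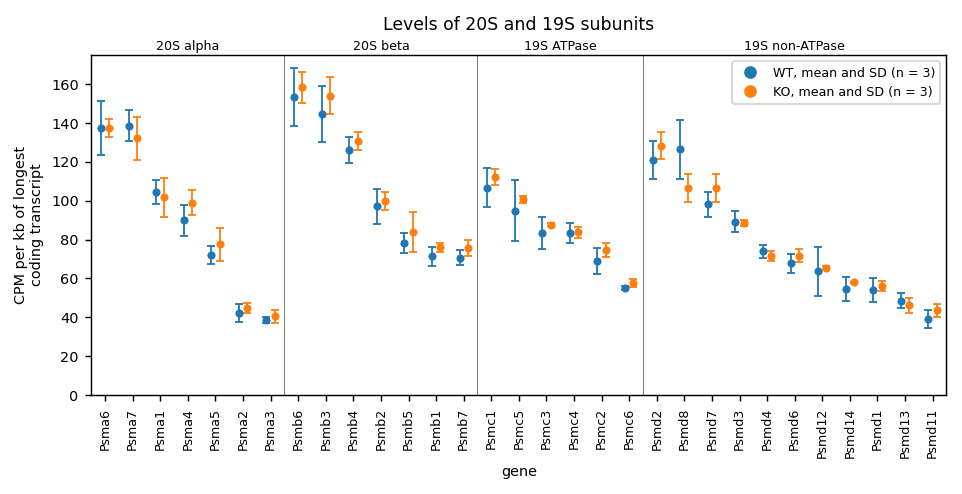
Mean level with SD (n = 3) of each core and regulatory subunit in CPM per kb of its longest coding transcript, by role and in falling order, with wild type in blue and knockout label in orange. The groups lie close together for most subunits, with mean levels from 39.5 for Psma3 to 156 for Psmb6 over all libraries. For Psmd8 the means are 127 (SD 15.2) in wild type and 107 (SD 7.26) in knockout libraries, with overlapping bars.

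The proteasome genes varied less between libraries than the table as a whole. The median SD of log2 CPM within groups was 0.11 for the 31 subunits and 0.15 over all rows, and the median ratio of the highest to the lowest library was 1.22 against 1.349. The table holds rows with far lower counts than the 31 subunits (lowest maximum count 133). Rows of similar level were not set beside them, and the part of level in the spread was not tested. The lowest single count of the 46 genes was 137. The genes lie on 16 chromosomes, with 10 of them on chromosome 11. Apart from Psme1 and Psme2, the closest pair was Psmb4 and Psmd4 on chromosome 3, 146 kb apart. Over 10% of the transcript's words were shared with other genes for 14 of the 46, and the share is not given above for each of these. With such subunits left out, the median log2 fold change was 0.045 over 9 core subunits and 0.060 over 12 regulatory subunits.

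Genes that work with the proteasome were read from 4 lists with 38 of 43 members in the table. edgeR called 0 of the 38 (0% of all rows), and at an unadjusted p under 0.05 it gave 1 higher (3.7% of all rows) and 2 lower (4.17%). The median log2 fold change of the 38 was -0.011. Groups did not overlap for 3 higher (Ngly1, Ube2k and Ufd1), where 8.39% of all rows did so. They did not overlap for 4 lower (Ubqln4, Rps27a, Ube2d1 and Nploc4), where 9.05% did so. These shares are near those of the table. DESeq2 called 1, Rps27a (0.938% of all rows tested), and limma-voom 0 (0% of all rows).

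Of 16 listed partners that bind, load or assemble the proteasome, Ubqln4, Ubqln2 and Zfand2a had the smallest unadjusted p. Ubqln4, which shuttles ubiquitinated proteins, stood at 123, 106 and 109 CPM in wild type and 97.0, 91.2 and 101 CPM in knockout libraries, with no overlap. The fitted log2 change came to -0.22 (SE 0.082, unadjusted p = 0.0336, adjusted p = 0.574 in edgeR), and -0.16 without wild type replicate 1. Ubqln2, a related shuttle, stood at 77.4, 81.5 and 88.5 CPM and at 98.1, 97.7 and 82.5 CPM, with a log2 fold change of 0.17 (SE 0.096, adjusted p = 0.579 in edgeR).

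Wild type replicate 1, where most subunits were lowest, was the highest library for 6 of the 16 partners (37.5%, against 32.2% of all rows) and the lowest for 5 of them, a share near that of the table. The partners named next were chosen after their values were seen, apart from Zfand2a, Pomp and Adrm1. Zfand2a, an arsenite-inducible gene whose product binds the regulatory particle, stood at 209 CPM in wild type replicate 1, at 79.7 and 84.1 CPM in replicates 2 and 3, and at 86.4, 82.7 and 57.0 CPM in knockout libraries. This gave a log2 fold change of -0.72 (SE 0.42, adjusted p = 0.581 in edgeR), and -0.12 without wild type replicate 1. Pomp, the maturation factor of the core, stood at 140, 99.7 and 98.6 CPM and at 97.4, 104 and 103 CPM, with a log2 fold change of -0.16 (SE 0.15, adjusted p = 0.679 in edgeR) that was 0.032 without that library. Akirin2, which carries proteasomes into the nucleus, stood at 74.4 CPM there and at 51.1 to 57.1 CPM elsewhere. Adrm1, a ubiquitin receptor of the regulatory particle, did not share this pattern, at 121, 127 and 121 CPM and 116, 119 and 126 CPM (log2 fold change -0.030, SE 0.063, adjusted p = 0.862 in edgeR). Its words are shared to 21.5% with other genes.

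The list for control of proteasome genes held Nfe2l1, Nfe2l2, Ddi2 and Ngly1. Nfe2l1 stood at 933, 1041 and 1108 CPM in wild type and 992, 893 and 1033 CPM in knockout libraries (log2 fold change -0.079, SE 0.11, adjusted p = 0.782 in edgeR). Ddi2, the protease that cleaves Nfe2l1, stood at 173, 152 and 147 CPM and at 141, 134 and 154 CPM (log2 fold change -0.14, SE 0.092, adjusted p = 0.597 in edgeR). Ngly1, which removes sugar chains from Nfe2l1, stood at 12.6, 14.5 and 13.5 CPM in wild type and at 16.5, 15.7 and 19.3 CPM in knockout libraries. The groups did not overlap, but the log2 fold change of 0.35 (SE 0.12, unadjusted p = 0.0311) did not pass (adjusted p = 0.574 in edgeR). Nfe2l2 was lowest in wild type replicate 1, at 76.7 CPM against 113 to 138 CPM elsewhere.

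Among genes of ubiquitin supply, Rps27a, which encodes ubiquitin fused to a ribosomal protein, stood at 238, 251 and 215 CPM in wild type and at 102, 123 and 125 CPM in knockout libraries. Its log2 fold change of -1.01 (SE 0.11) did not pass in edgeR (adjusted p = 0.273) and passed in DESeq2 (adjusted p = 5.8e-12). It was -0.997 without wild type replicate 1, and 44.0% of its words are shared, mainly with the pseudogene Rps27a-ps2. Ubb, which encodes a chain of fused ubiquitin units, showed a log2 change of -0.035 (SE 0.11), and it shares 58.4% of its words. Uba6, an activating enzyme, stood at 41.4, 53.4 and 54.2 CPM in wild type and 59.8, 66.5 and 51.1 CPM in knockout libraries, with overlapping groups (log2 change 0.25, SE 0.15, adjusted p = 0.581 in edgeR). Ube2d1, a conjugating enzyme, stood at 43.3, 40.8 and 36.7 CPM and at 35.8, 36.6 and 36.3 CPM (log2 change -0.15, SE 0.085, adjusted p = 0.579 in edgeR). Its groups did not overlap, though wild type replicate 3 lay close to the knockout libraries. In the segregase list, Nploc4, a cofactor of the unfolding ATPase Vcp, stood at 347, 173 and 184 CPM and at 162, 160 and 151 CPM. It was high in wild type replicate 1, and its log2 fold change went from -0.58 (SE 0.28, adjusted p = 0.574 in edgeR) to -0.18 without that library. Ufd1, its partner, stood at 68.4, 73.4 and 75.4 CPM and at 77.1, 76.1 and 80.1 CPM, with no overlap (log2 change 0.10, SE 0.067, adjusted p = 0.594 in edgeR). The ligase Ube4b stood at 161, 151 and 165 CPM and at 157, 131 and 146 CPM, with overlapping groups (log2 change -0.14, SE 0.087, adjusted p = 0.590 in edgeR).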

How the data were processed

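Per the labels' protocols, column-purified RNA went into NEBNext Ultra libraries, read from both ends at 150 bases. The authors deposited raw counts per gene symbol; per the submitters' processing notes the tools were CASAVA 1.8, HISAT2 and featureCounts and the build GRCm38 (mm10). The sources used here give no annotation, strand setting or rule for removing low genes (the lowest maximum count is 133).

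All genes were fitted together with edgeR 4.0.16 in R 4.3.3 (filterByExpr, which removed 0 genes, TMM, robust quasi-likelihood F test, group only, Benjamini-Hochberg at 0.05). DESeq2 1.42.0 and limma-voom (limma 3.58.1) were alternatives, as were other scalings and filters, a replicate block and each library left out. Gene models came from GENCODE M21, and shared sequence was measured in 31-base words of the longest transcript. Members, lists and alternatives were chosen with earlier results of these data known. Values per library were given for the catalytic and inducible subunits, Psme1, Psme2, Psmd14, Adrm1, Pomp, the highest and lowest fold change of the alpha ring, the beta ring, the ATPases and the other regulatory subunits, the 6 smallest p, and 3 genes per linked list; other genes were added after their values were seen.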

Additional observations from a re-analysis of the deposited data

How the results depend on the processing

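Calls of proteasome genes were 0 under every scaling, filter, test, threshold and left-out library that was run. Over all genes, edgeR called 0 higher and 0 lower, DESeq2 64 higher and 39 lower, and leaving out each library gave 0 to 1 higher and 0 to 1 lower, the calls coming without wild type replicate 2. At an unadjusted p under 0.05, leaving out each library gave 0 to 1 proteasome genes lower, against 0 with all libraries; the 1 gene was Psmd8 without wild type replicate 2. With each library left out, the median log2 fold change ranged from 0.026 to 0.12 for the core and from -0.0034 to 0.12 for the regulatory particle, both lowest without wild type replicate 1. The number of genes whose groups did not overlap went from 2 to 5 without that library, an alternative chosen after seeing the data. Of 416 alternative values for 32 named genes, 404 kept direction and side of the threshold. The side of the threshold could hardly change, since outside DESeq2 almost no rows were called. The setting without a filter repeated the main fit, because the filter removed no genes. With each library left out, log2 fold changes that changed sign ranged from -0.0099 to 0.15 for Psmb5, -0.0024 to 0.13 for Psmb6, -0.0067 to 0.068 for Psme1, -0.20 to 0.25 for Psmb8, -0.12 to 0.40 for Psmb9, -0.0034 to 0.14 for Psmd14, -0.24 to 0.032 for Pomp, -0.032 to 0.088 for Psmb2 and -0.039 to 0.052 for Psmc4. The sign changed without wild type replicate 1 for Psmb6, Psmb8, Psmb9, Psmd14, Pomp, Psmb2 and Psmc4, without knockout replicate 2 for Psmb5, Psme1 and Psmc4 (-0.0012), and without knockout replicate 3 for Psmc4 (-0.0098). With the replicate block the medians were 0.079 for the core and 0.073 for the regulatory particle and the calls of proteasome genes 0. The labels do not say that equal numbers share a source, and the deviations of same-numbered libraries correlated at -0.11, 0.35 and -0.25, so the numbers were not taken as pairs. Depth limits the chaperones Psmg3 and Psmg4 and the subunit Psmb9 most.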
